A study of Mus musculus with 6 samples.

Results

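The Adam, Adamts and Adamtsl genes were compared between the tail (caudal) arteries of Notch3-/- and Notch3+/+ mice. A gene was included where a probe set carried, as its only symbol in the platform annotation, Adam, Adamts or Adamtsl followed by a number. This rule used no expression value, though the families were chosen with earlier results of these data known. The rule gave 48 of 18193 genes, with 82 of the 45037 probe sets that remained after the removal of 64 chip controls. A probe set is a group of short probes for 1 transcript. There were 3 pools of Notch3-/- arteries, each from 4 animals, and 3 pools of Notch3+/+ arteries, from 4, 3 and 3 animals in replicates 1, 2 and 3. All animals were 4 weeks old (P28), and the labels name no treatment. Neither the strain, the sex nor the design of the Notch3 allele is given in the sources used here. RNA was hybridised to 6 Affymetrix mouse arrays, and the deposited values are log2 levels made with RMA, a method that corrects background, equalises arrays and summarises the probes of a set.

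ADAM proteins are membrane-anchored relatives of snake venom metalloproteases. Those with an intact zinc-binding active site shed growth factors, cytokines and receptors from the cell surface, and ADAM10 makes the cut that precedes the release of the intracellular part of Notch receptors. ADAMTS proteins are secreted and bind the extracellular matrix through thrombospondin repeats. Among their substrates are the large proteoglycans versican and aggrecan, procollagens and von Willebrand factor. ADAMTS-like proteins carry the ancillary domains without a protease and bind microfibrils. In arteries, proteoglycan cleavage by ADAMTS enzymes is a known part of vessel wall remodelling.

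Pairwise correlations of the arrays over probe sets lay between 0.990 and 0.996. The smooth muscle markers Acta2, Tagln, Myl9 and Myh11 read between 12.01 and 13.25 as group means, on a scale that ended at 13.38. The other 3 of the 7 smooth muscle markers differed more, with Cnn1 at 0.51 (adjusted p = 0.138 in limma), Smtn at -0.58 (adjusted p = 0.318 in limma) and Lmod1 at -0.26 (adjusted p = 0.587 in limma). The pools of Cnn1 and of Smtn did not overlap between genotypes, none of the 7 passed the threshold, and their part in the results below was not tested. Notch3 read 6.27 ± 0.35 in Notch3-/- and 9.99 ± 0.08 in Notch3+/+ pools (SD, n = 3 each), a difference of -3.72 with an adjusted p of 0.000529 in limma. The place of its probes relative to the targeted part is not known. Notch3-/- replicate 2 stood apart on the first principal component, which held 45.2% of the variance (the position on it has no unit), at 39.5 against -17.1 to 5.85 for the other arrays. On that array the chip's 3′ probe set of Actb exceeded the 5′ one by 0.58, against 0.35 to 0.42 on the other arrays. For Gapdh the same difference was -0.11, inside the range of the other arrays, -0.19 to -0.05. Nothing in the labels says whether pools share a litter or day, so the p-values measure the spread between these pools only. In RNA from whole arteries, fewer cells of a type and less RNA per cell cannot be told apart.

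Of the 48 genes, 29 had a representing probe set (the one with the highest mean over the 6 arrays) at or above the level filter of 3.83, the 40th percentile of all probe sets. None of the 29 passed the threshold, an adjusted p of 0.05 in limma with Benjamini-Hochberg adjustment over 27027 probe sets. Nor did any of the 52 probe sets of these families above the filter. Over the series, 0.252% of tested probe sets and 0.322% of 12732 tested genes passed. At an unadjusted p under 0.05 in limma stood 9 of the 29 genes (31.0%), 6 higher and 3 lower in Notch3-/- arteries, and 13 of the 52 probe sets. The share among all tested genes was 11.9%, made up of 7.1% higher and 4.81% lower. No Notch3-/- pool overlapped a Notch3+/+ pool in 8 of the 29 genes (27.6%), against 17.3% of all tested genes. A difference of at least 0.3 in either direction stood in 5 of the 29 (17.2%), against 9.27% of all tested genes. The median difference of the 29 was 0.05 in log2 units (Notch3-/- minus Notch3+/+, as everywhere here), against -0.0033 for all tested genes. Positive differences made up 20 of the 29 (69.0%), against 49.5% of all tested genes. These are descriptions of the list, and no test was made over it.

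On the representing probe sets the differences of the 29 genes were small. They ran from -0.48 to 0.37, and the 95% intervals from limma reached a median of 0.25 to either side. The interval of every one of the 29 lay within a change of 1, or 2-fold, and that of 21 lay within 1.5-fold. The most extreme bound on these probe sets was 0.74, or 1.67-fold, for Adam12. Other tested probe sets reached beyond 2-fold. Their intervals were -0.31 to 1.36 for one of Adamts9, 0.04 to 1.12 for one of Adam12 and -1.001 to 0.39 for one of Adam10.

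**Figure D1:**
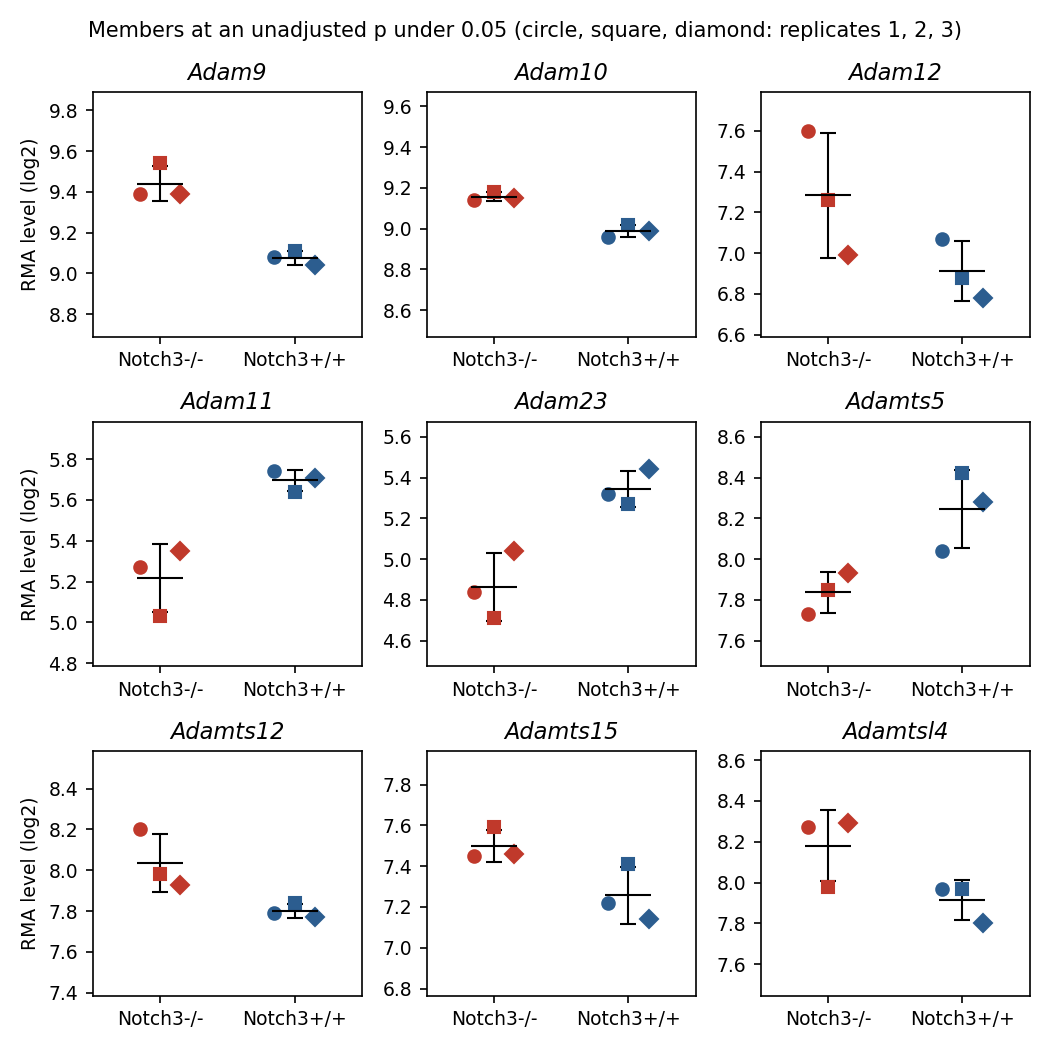
RMA level (log2) of the 9 genes at an unadjusted p under 0.05, in 3 Notch3-/- pools (red) and 3 Notch3+/+ pools (blue), with the replicate marked by symbol and the mean and SD as black bars. Each axis spans the same log2 range. In Adam9, Adam10, Adam11, Adam23, Adamts5, Adamts12, Adamts15 and Adamtsl4 the pools of the genotypes do not overlap, and in Adam12 they do.

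No membrane-anchored Adam protease passed the threshold. Of 9 measured, 7 were above the filter, with a median of 0.17 and a range of -0.14 to 0.37. The positive ones were 5 of the 7, among them Adam17 at 0.0033 and Adam10, whose probe sets disagreed. The median was 0.017 with the probe set of highest variance for each gene and 0.087 with the mean of a gene's probe sets. Adam9, which sheds ligands of the epidermal growth factor receptor, read 9.39, 9.54 and 9.39 in Notch3-/- pools, against 9.08, 9.11 and 9.04 in Notch3+/+ pools. Every Notch3-/- pool lay above every Notch3+/+ pool, and the spread within a genotype was smaller than the gap between them. The difference was 0.36 (SE 0.08, 95% interval 0.18 to 0.55), or 1.29-fold, with an adjusted p of 0.182 in limma. With limma's array weights, which gave Notch3-/- replicate 2 a weight of 0.29, it was 0.31 with an adjusted p of 0.0334. That setting called 2 of the 29 genes, against 3.65% of all tested genes, and 3 of the 52 probe sets, against 3.62% of all tested probe sets.

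Adam10, the protease of the first ligand-induced cut of Notch receptors, read 9.14, 9.18 and 9.15 in Notch3-/- pools, against 8.96, 9.02 and 8.99 in Notch3+/+ pools on its brightest probe set. The pools did not overlap, at a difference of 0.17 (SE 0.07, 1.12-fold, adjusted p = 0.437 in limma). The other tested probe sets of Adam10 gave -0.21 and -0.31. Adam17, the tumour necrosis factor converting enzyme, which can also cut Notch receptors, read 7.50, 7.30 and 7.27 in Notch3-/- pools, against 7.44, 7.27 and 7.35 in Notch3+/+ pools. Its pools were interleaved, with a difference of 0.0033 and a 95% interval of -0.22 to 0.22. The other tested probe sets of Adam17 gave -0.19 and -0.36 (adjusted p = 0.688 and 0.629 in limma).

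Adam12, or meltrin alpha, a protease of muscle and stromal cells, read 7.60, 7.26 and 6.99 in Notch3-/- pools, against 7.07, 6.88 and 6.78 in Notch3+/+ pools. Replicate 3 of Notch3-/- lay below replicate 1 of Notch3+/+, so the groups overlapped. The difference was 0.37 (SE 0.16, adjusted p = 0.438 in limma), and the dimmer probe set gave 0.58 (adjusted p = 0.416 in limma). Without Notch3-/- replicate 1 the difference on the brighter probe set was 0.22. Adam19, or meltrin beta, which processes neuregulin, differed by 0.30 (95% interval -0.02 to 0.62), though its other probe set gave 0.02. Adam15, an integrin-binding ADAM, differed by -0.13, and its 4 probe sets ran from -0.20 to -0.05. Adam33, known from smooth muscle and fibroblasts of human airways, gave -0.14 on one probe set and 0.31 on the other. Adam8, a protease of leukocytes, and Adam28 were below the filter, and Adam8 read 3.89, 3.90 and 3.63 in Notch3-/- pools against 3.82, 3.46 and 3.10 in Notch3+/+ pools.

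Markers of other cell types also differed between these pools. The 8 markers of adventitial fibroblasts all had positive differences (median 0.22). Their median deviation from the gene means lay between 0.05 and 0.15 in Notch3-/- pools, and between -0.30 and -0.07 in Notch3+/+ pools. Of these, Dpt rose by 0.58 (adjusted p = 0.0499 in limma). Of 10 macrophage and leukocyte markers, Itgam was below the filter and the other 9 were positive, with a median of 0.51. Per pool they lay between 0.10 and 0.44 in Notch3-/-, and between -0.67 and 0.05 in Notch3+/+ pools. The 7 mast cell markers were positive too (median 0.76). Their deviations lay between 0.12 and 0.70 in Notch3-/- pools, while Notch3+/+ pools spanned -0.88 to 0.28. Endothelial (7 tested, median -0.27), skeletal muscle (6 tested, median -0.38) and adipocyte markers (5 tested, median -0.18) were mostly negative, and 4 tested markers of tendon and cartilage had a median of -0.05. Of all these, Dpt alone passed the threshold. Their part in the differences of Adam9, Adam12, Adam19 and the secreted proteases was not tested.

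Of the 3 Adam genes whose proteins lack an active protease, Adam11 and Adam23 were lower in Notch3-/- pools and Adam22 was not, and none passed the threshold. ADAM11, ADAM22 and ADAM23 are surface proteins known from neurons, where they bind the secreted LGI proteins. Adam11 read 5.27, 5.03 and 5.35 in Notch3-/- pools, against 5.74, 5.64 and 5.71 in Notch3+/+ pools. All Notch3-/- pools lay below all Notch3+/+ pools, with replicate 2 the lowest. The difference was -0.48 (SE 0.10, 95% interval -0.71 to -0.25), or 1.39-fold lower, with an adjusted p of 0.169 in limma, the smallest of the 52 probe sets. Its dimmer probe set gave -0.22 (adjusted p = 0.477 in limma). Without Notch3-/- replicate 2 the Adam11 difference was -0.39, and with array weights it was -0.36 with an adjusted p of 0.0391 in limma.

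Adam23 read 4.84, 4.71 and 5.04 in Notch3-/- pools, against 5.32, 5.27 and 5.44 in Notch3+/+ pools. The pools did not overlap. The difference was -0.48 (SE 0.10, 95% interval -0.72 to -0.24), with an adjusted p of 0.182 in limma, and the next probe set gave -0.35 (adjusted p = 0.396 in limma). Adam22 read 6.84, 6.69 and 6.99 in Notch3-/- pools, against 6.54, 6.67 and 6.78 in Notch3+/+ pools, which overlapped, and differed by 0.18 (95% interval -0.07 to 0.42). Schwann cell and nerve markers were measured in 4 of 6 cases, with Gfra3 at -0.33 (adjusted p = 0.182 in limma), Sox10 at -0.18, Mbp at -0.01 and S100b at 0.14. Their median deviation lay between -0.095 and 0.035 in Notch3-/- pools, and between 0.025 and 0.14 in Notch3+/+ pools. Their part in the values of Adam11 and Adam23 was not tested.

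The remaining Adam genes are known mostly from testis and epididymis, where several serve sperm maturation and egg binding. Of 16 measured, 14 lay below the filter. Adam4 (-0.07) and Adam21 (0.18) were above it, with 95% intervals that included 0. Among the genes below the filter, Adam32, Adam5, Adam3 and Adam18 follow one another directly beside Adam9 on chromosome 8, with 0 other protein-coding genes between neighbours.

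**Figure D2:**
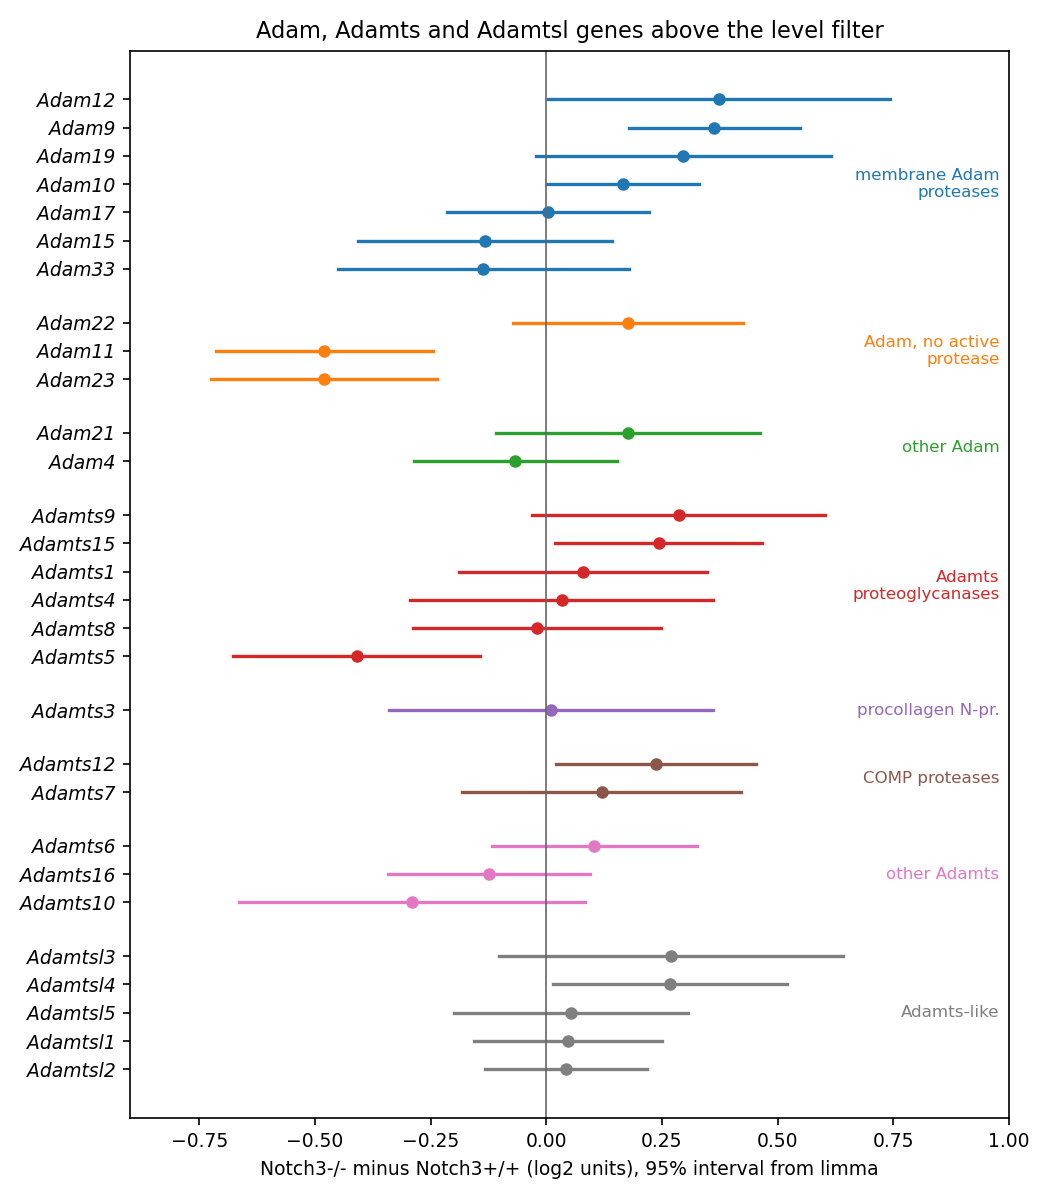
Difference between genotypes (Notch3-/- minus Notch3+/+, log2 units) for the 29 genes above the level filter, by protein group, with 95% intervals from limma as bars. All of these intervals, from the representing probe sets, lie between -1 and 1. Adam11, Adam23 and Adamts5 have the lowest intervals. On the other side Adam9, Adam10, Adam12, Adamts12, Adamts15 and Adamtsl4 are clear of 0, with Adam9 the farthest from it.

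Among the Adamts proteoglycanases, Adamts5 was lower in Notch3-/- pools and the others stood between -0.02 and 0.29. Adamts5, an enzyme of aggrecan and versican cleavage, read 7.73, 7.85 and 7.93 in Notch3-/- pools, against 8.04, 8.42 and 8.28 in Notch3+/+ pools. No pool overlapped, although Notch3+/+ replicate 1 lay only a little above Notch3-/- replicate 3. The difference was -0.41 (SE 0.11, 95% interval -0.68 to -0.14), or 1.33-fold lower, with an adjusted p of 0.266 in limma. A second probe set gave -0.44 (adjusted p = 0.233 in limma) and the remaining tested one -0.21 (adjusted p = 0.539 in limma), all of 1 sign.

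Adamts1, also a proteoglycanase and the direct neighbour of Adamts5 on chromosome 16, read 8.20, 8.46 and 8.35 in Notch3-/- pools, against 8.43, 8.08 and 8.26 in Notch3+/+ pools. The groups overlapped, with a difference of 0.08 (95% interval -0.19 to 0.35). Whether the differences of these neighbours themselves differ was not tested. Adamts15 read 7.45, 7.59 and 7.46 in Notch3-/- pools, against 7.22, 7.41 and 7.14 in Notch3+/+ pools, without overlap. It differed by 0.24 (SE 0.10, adjusted p = 0.409 in limma), and its neighbour on chromosome 9, Adamts8, by -0.02. Adamts9 read 8.17, 8.08 and 7.87 in Notch3-/- pools, against 8.02, 7.63 and 7.61 in Notch3+/+ pools, and differed by 0.29 (95% interval -0.03 to 0.60). Adamts4, an aggrecan-cleaving enzyme, differed by 0.03 (95% interval -0.29 to 0.36), and Adamts20 was below the filter.

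Proteases of other substrates gave values near 0 or small differences. Adamts12, which cleaves cartilage oligomeric matrix protein, read 8.20, 7.98 and 7.93 in Notch3-/- pools, against 7.79, 7.84 and 7.77 in Notch3+/+ pools. The pools did not overlap, at a difference of 0.24 (SE 0.09, adjusted p = 0.408 in limma). Adamts7, which cleaves the same protein, differed by 0.12 (95% interval -0.18 to 0.42). Of the procollagen N-proteinases only Adamts3 was represented here, at 3.91 in Notch3-/- and 3.90 in Notch3+/+ pools as group means, just above the filter. Adamts2 and Adamts14 were not analysed here. Adamts6 (0.10), Adamts16 (-0.12) and Adamts10 (-0.29, 95% interval -0.66 to 0.08) overlapped between genotypes. Adamts10, a microfibril-associated ADAMTS, read 8.76, 8.12 and 8.52 in Notch3-/- pools, against 8.64, 8.76 and 8.87 in Notch3+/+ pools. It lies on chromosome 17 like Notch3, with 34 protein-coding genes between them.

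All 5 Adamts-like genes were above the filter and all 5 were positive on their brightest probe sets, from 0.04 to 0.27. Of all tested genes 49.5% were positive. On these probe sets the 95% intervals of all but Adamtsl4 included 0. Adamtsl4, a fibrillin-binding protein, read 8.27, 7.98 and 8.29 in Notch3-/- pools, against 7.97, 7.97 and 7.80 in Notch3+/+ pools. The lowest Notch3-/- pool exceeded the highest Notch3+/+ pool by the last decimal only. The difference was 0.27 (SE 0.11, adjusted p = 0.419 in limma). Adamtsl1 differed by 0.05 on its brightest probe set and by 0.36 on the next, which read 6.54, 6.51 and 6.56 in Notch3-/- pools, against 6.06, 6.17 and 6.31 in Notch3+/+ pools. That probe set had an adjusted p of 0.227 in limma, and of 0.0278 with array weights. Adamtsl3 (0.27) and Adamtsl5 (0.05) overlapped between genotypes, and the other probe set of Adamtsl5 gave -0.11 (adjusted p = 0.839 in limma).

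Promoter windows were searched for GTGGGAA, a motif of RBPJ, the DNA-binding partner of Notch receptors, on both strands (TTCCCAC on the other). RefSeq windows from 250 bases before to 50 after the start (GRCm38.p6) were held for 24 of the 48 genes, 26 windows in all. Of these 24 genes, 3 (Adamtsl2, Adam8 and Adam21) contained the motif. Among all genes 6.38% of 32851 windows contained the motif, a share of windows and not of genes. Of the 9 genes at an unadjusted p under 0.05, 4 had a window and 0 of these held the motif. The 250 bases before the start of Adamtsl2 (chr2:27079129-27079378, plus strand) are shown as an example, with the motif in capitals, 67 bases before the start. Adam21, the other gene with the motif that was above the filter, held it 246 bases before the start.
Adamtsl2: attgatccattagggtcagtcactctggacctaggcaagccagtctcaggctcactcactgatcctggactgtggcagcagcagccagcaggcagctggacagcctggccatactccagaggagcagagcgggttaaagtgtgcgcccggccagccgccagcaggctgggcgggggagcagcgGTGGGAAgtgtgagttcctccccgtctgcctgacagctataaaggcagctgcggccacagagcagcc
Adamtsl2 read 5.90, 6.01 and 5.88 in Notch3-/- pools, against 5.88, 5.88 and 5.90 in Notch3+/+ pools. The pools were interleaved, with a difference of 0.04 (95% interval -0.13 to 0.22). A match describes letters in a window and does not show that RBPJ binds there.

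Probe sets of 1 gene disagreed in part, and several of these disagreements lay in Notch3-/- replicate 2. Of 16 genes with at least 2 tested probe sets, 4 had both signs, namely Adam10, Adam17, Adam33 and Adamtsl5. The 3 tested probe sets of Adam10 read 9.18, 6.64 and 5.65 in Notch3-/- replicate 2, where the other Notch3-/- pools read 9.14 to 9.15, 7.42 to 7.60 and 6.51 to 6.93. The dimmest probe set of Adam17 read 4.87 in that pool, against 5.69 to 6.06 in the other arrays. The second probe set of Adamts9 went the other way, at 8.29 in that pool against 6.61 to 7.60. Notch3-/- replicate 2 was the lowest of the 6 arrays in 16 of the 52 probe sets (30.8%), against 28.3% of all tested probe sets, and the highest in 7 (13.5%), against 25.8% of all. Notch3+/+ replicate 3 was the lowest in 15 of the 52 (28.8%), against 17.7% of all tested probe sets. The part of RNA quality or of single arrays in these values was not tested.

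**Figure D3:**
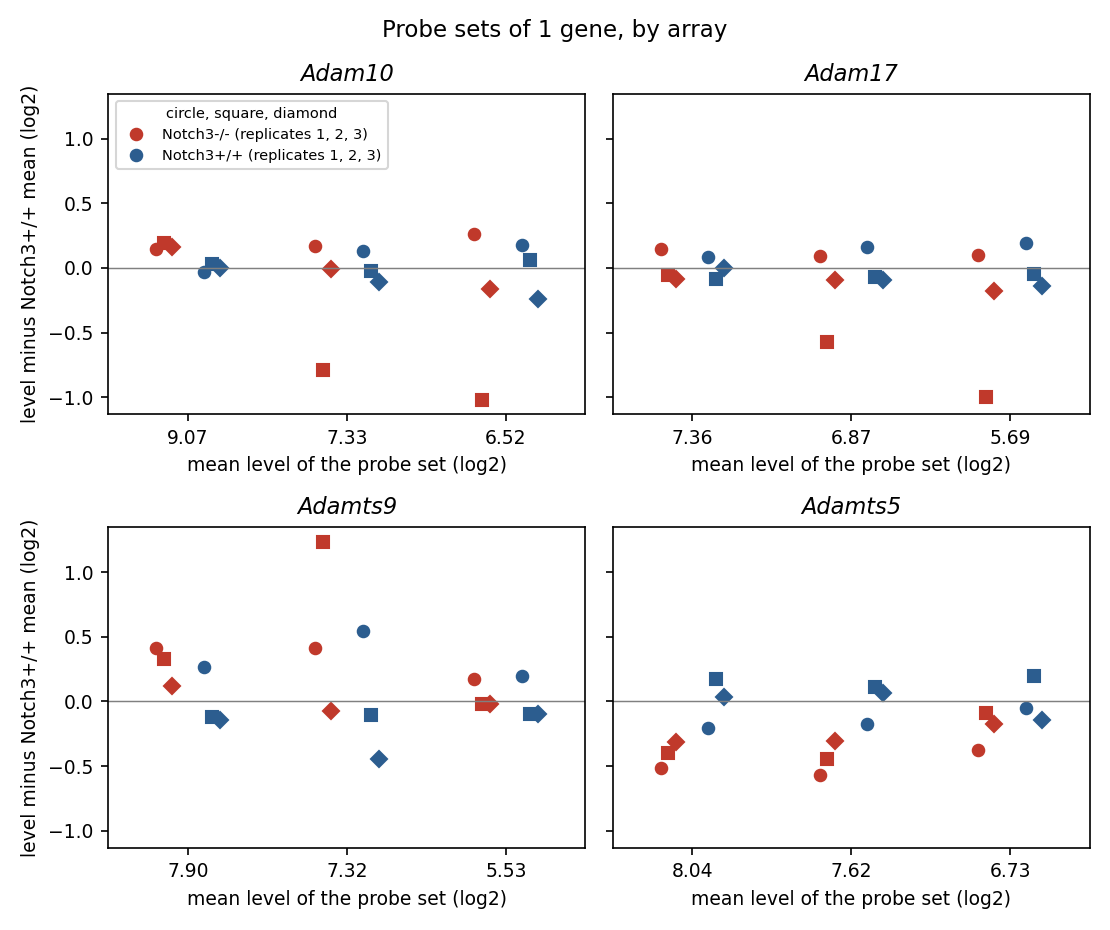
Level of each tested probe set of Adam10, Adam17, Adamts9 and Adamts5 in each array, minus that probe set's Notch3+/+ mean (log2), in Notch3-/- (red, left) and Notch3+/+ pools (blue, right), with replicates 1, 2 and 3 as circle, square and diamond. Probe sets are ordered by mean level. The square of Notch3-/- replicate 2 departs from the other arrays in the dimmer probe sets of Adam10 and Adam17 and in the second of Adamts9, whereas the probe sets of Adamts5 run alike.

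Inhibitors, activators and substrates of these proteases held 2 called genes. Of 65 tested, Timp4 fell and Tnc rose (0.322% of all tested genes were called). The lists were chosen with earlier results of these data known, so this count only describes them. Timp4, a tissue inhibitor of metalloproteinases, read 6.79, 6.88 and 6.75 in Notch3-/- pools, against 7.93, 8.22 and 8.31 in Notch3+/+ pools. The groups were far apart. It fell by 1.35 (SE 0.11), a 2.54-fold change (adjusted p = 0.00505 in limma), and its other probe set fell by 1.43 (adjusted p = 0.00202 in limma). Timp3, the family member that inhibits several ADAM and ADAMTS enzymes, read 10.30, 10.25 and 10.34 in Notch3-/- pools, against 10.09, 10.07 and 9.97 in Notch3+/+ pools. The pools did not overlap on that probe set, at a difference of 0.25 (SE 0.08, adjusted p = 0.298 in limma), while its 3 other probe sets gave 0.05 to 0.12. Reck, a membrane-anchored metalloprotease inhibitor, differed by 0.31 (adjusted p = 0.361 in limma) and Lrp1, an endocytic receptor that clears ADAMTS5 and other proteases, by 0.20. Of 6 tested genes for inhibition and clearance, 4 were positive and 2 negative, with a median of 0.17, and Timp4 alone passed the threshold.

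Of 13 convertases and partners of ADAM10 and ADAM17, 0 passed in limma and 2 had an unadjusted p under 0.05 (11.9% of all tested genes did), with a median of -0.06. Pcsk5, a proprotein convertase of the class that removes protease prodomains, read 7.79, 8.41 and 7.96 in Notch3-/- pools, against 7.23, 7.09 and 7.24 in Notch3+/+ pools. The pools were well apart, at a difference of 0.87 (SE 0.16), which is 1.82-fold (adjusted p = 0.111 in limma), and its other tested probe sets gave 0.64 (adjusted p = 0.0653 in limma) and 0.57. Pcsk6, a related convertase, differed by -0.46 (adjusted p = 0.248 in limma). Rhbdf1 and Rhbdf2, the iRhom partners that ADAM17 needs to reach the cell surface, differed by -0.18 and -0.19 (adjusted p = 0.480 and 0.485 in limma). Both 95% intervals included 0. The pools of each did not overlap, which held for 17.3% of all tested genes.

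Of 27 shed ligands and receptors, 0 passed in limma and 4 had an unadjusted p under 0.05, 2 in each direction, against 11.9% of all tested genes, with a median of 0.02. The adhesion molecule Vcam1, shed by ADAM17, read 7.88, 7.65 and 7.66 in Notch3-/- pools, against 7.27, 7.27 and 6.90 in Notch3+/+ pools, and differed by 0.58 (adjusted p = 0.177 in limma). Mertk, a phagocytic receptor, differed by -0.38, the growth factor Hbegf by -0.33 and Tgfa by 0.41, with adjusted p from 0.317 to 0.429 in limma. The other tested probe sets of Tgfa gave -0.20 (adjusted p = 0.474 in limma) and 0.03, so its probe sets had both signs.

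Of 19 tested matrix substrates, 8 were positive and 11 negative, with a median of -0.04. Tnc alone passed the threshold, which 0.322% of all tested genes did. Tnc, which encodes tenascin C, read 7.84, 8.08 and 7.99 in Notch3-/- pools, against 7.01, 6.70 and 6.81 in Notch3+/+ pools, with an increase of 1.13 (SE 0.11) and an adjusted p of 0.00983 in limma. Vcan, which encodes versican, read 8.39, 8.56 and 8.44 in Notch3-/- pools, against 7.99, 7.73 and 7.72 in Notch3+/+ pools. Its difference was 0.65 (SE 0.10), which is 1.57-fold (adjusted p = 0.0706 in limma), and its other tested probe sets gave 0.51 and 0.39. Fbn2, a fibrillin gene, differed by 0.55 (adjusted p = 0.240 in limma) and Thbs1, a thrombospondin gene, by -0.59 (adjusted p = 0.357 in limma). The calls of Timp4 and Tnc were both lost without Notch3-/- replicate 3 (adjusted p = 0.0633 and 0.0923 in limma) and without Notch3+/+ replicate 2 (0.0580 and 0.0813), and that of Tnc also without Notch3+/+ replicate 3 (0.0951).

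**Figure D4:**
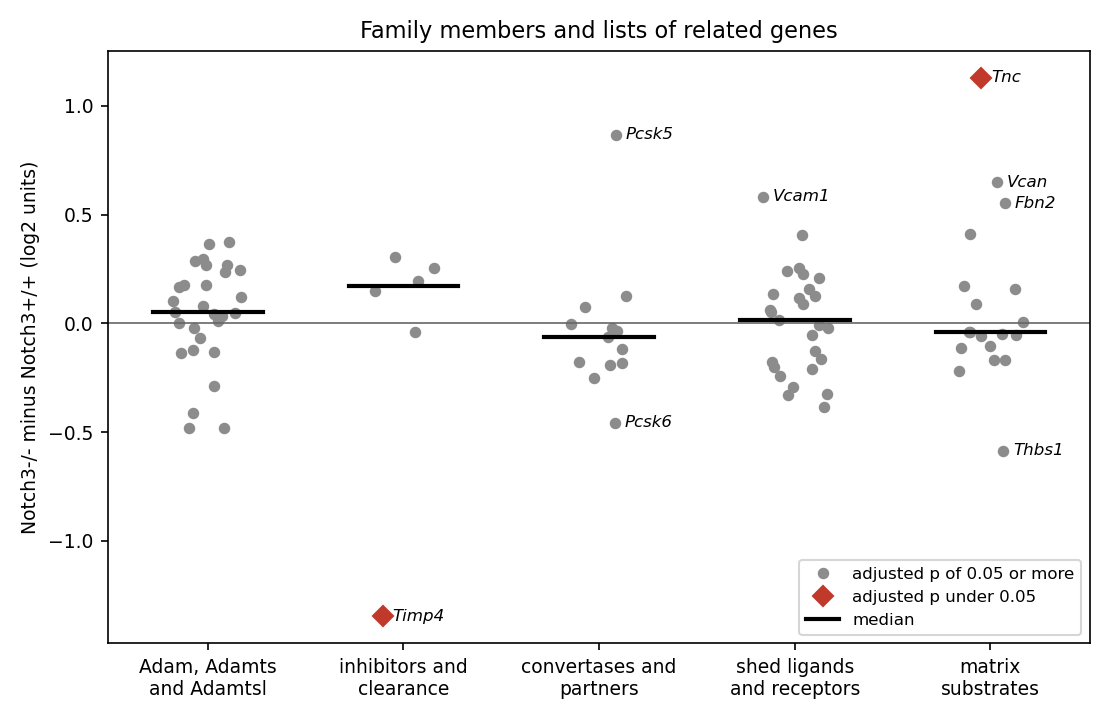
Difference between genotypes (Notch3-/- minus Notch3+/+, log2 units) for the 29 Adam, Adamts and Adamtsl genes above the filter and for the tested genes of 4 lists of related genes. Points are genes at their brightest probe set, spread sideways for legibility, black lines are medians, and red diamonds passed the threshold. Timp4 (-1.35) and Tnc (1.13) are the 2 called genes, and the 29 family members lie between -0.48 and 0.37.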

How the data were processed

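The deposited values are log2 expression levels per probe set made by the authors with RMA, per the submitters' processing notes. The sources used here give neither its version nor its chip definition. Scanner files were not used, and the values carry no detection calls. Platform annotation gave 34945 probe sets 1 gene symbol. Symbols were updated by gene number through RefSeq (GRCm38.p6, 34741 matched). Probe sets with several genes or none were not named. Probe sets with a mean below the 40th percentile (3.83) were left out, which left 27027.

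Genotypes were compared with limma 3.58.1 in R 4.3.3 (lmFit, eBayes, genotype as the only term) and two-sided p-values adjusted over all 27027 probe sets, at a threshold of 0.05. Each gene was represented by its probe set with the highest mean. The number of arrays limits the precision. The fit was tested on simulated data of 27027 probe sets, with 50 changed at each fold. It called 58% of the 1.5-fold and 86% of the 2-fold changes, and 8 unchanged probe sets.

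The families, role groups and lists of related genes and markers were chosen with earlier results of these data known. Named were all members at an unadjusted p under 0.05, the 10 largest differences, members of the main role groups, and related genes with the smallest p. Others named were chosen after their values were seen. Alternatives varied the filter, variance model, scaling, weights, replicate block, threshold, probe set choice and each array left out. Protein sequences were not used here.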

Additional observations from a re-analysis of the deposited data

How the results depend on the processing

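The count of 0 called family genes and 0 called family probe sets held under all settings but limma's array weights. That setting called 2 genes (Adam9 and Adam11) and 3 probe sets (these and one of Adamtsl1), and 978 probe sets in all. Of the 65 tested related genes, chosen with earlier results known, it called 10, against 3.65% of all tested genes. The cause was not tested. Over all probe sets the count was 68, with 142 at a threshold of 0.10 and 13 to 62 with 1 array left out. Among Notch3-/- pools, dropping replicate 2 gave 37 and dropping replicate 3 gave 17. Among Notch3+/+ pools, these omissions gave 13 and 23. Related genes called numbered 2, with 0 to 2 when 1 array was left out. The number was 1 when the probe set with the highest variance or the mean over a gene's probe sets was used. With the highest variance, the probe set of Tnc averaged 3.68, below the filter, so Tnc was not tested there. With the mean, Tnc had an adjusted p of 0.0563 in limma. Among family members, 25 of 514 values turned sign. With the highest variance or the mean of probe sets, Adam10 read -0.31 and -0.13, Adam17 -0.36 and -0.18, Adam33 0.31 and 0.087, and Adamtsl5 -0.11 and -0.027. Adam17 also read -0.019 with further quantile normalization, -0.0060 with array weights and -0.0053 with weights by mice pooled. Adamts8 read 0.01 with median centring and 0.001 with weights by mice pooled, and Adamts3 -0.028 and Adamts4 -0.079 with array weights. With 1 array left out, Adam4 ran from -0.13 to 0.015, Adam17 from -0.068 to 0.047, Adamts1 from -0.0083 to 0.17, Adamts3 from -0.16 to 0.16, Adamts4 from -0.097 to 0.14, Adamts8 from -0.125 to 0.09, Adamtsl1 from -0.01 to 0.115 and Adamtsl5 from -0.048 to 0.11. Group medians moved by more than the spread between pools in 9 of 113 cases. With array weights and with the mean of probe sets the genes without an active protease had -0.32 and -0.33. With the highest variance the proteoglycanases had 0.15 and the Adamts-like genes 0.16, which were 0.19 with the mean of probe sets. Without Notch3+/+ replicate 1 the proteoglycanases had 0.15, and the Adamts-like genes had 0.11 when replicate 2 of that genotype was dropped. The titles' replicate numbers as a block gave 57 probe sets called, 0 of them family members, and 2 related genes. Deviations of same-numbered pools correlated at 0.24, 0.05 and -0.07, and 2 of 6 pools correlated best with their own number, so the numbers were not taken as pairs. No detection calls were at hand, so whether a gene below the filter is expressed cannot be said.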

Other observations

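Probe sets that the annotation gives to a family member and another gene were kept out of all counts. There were 5, of which 4 were shared by Adam1a and Mapkapk5 and 1 by Adam6a and Adam6b. The brightest of those shared by Adam1a and Mapkapk5 read 5.71, 5.44 and 5.46 in Notch3-/- pools, against 5.76, 5.67 and 5.93 in Notch3+/+ pools, a difference of -0.25 with an adjusted p of 0.450 in limma, and the probe sets do not tell the genes apart. The probe set of Adamdec1, an ADAM-like gene of macrophages and dendritic cells that the naming rule leaves out, averaged 2.80 in Notch3-/- and 2.73 in Notch3+/+ pools, below the filter.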
